A study of Rattus norvegicus with 9 samples.

Results

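Fibronectin, fibrillin-1, elastin and the proteins that build elastic fibres around them were examined in the left ventricle of rats after myocardial ischemia reperfusion injury (IRI), with and without remote ischemic postconditioning (RPostC). The group held 10 genes (*Fn1*, *Fbn1*, *Eln*, *Fbln1*, *Fbln2*, *Fbln5*, *Efemp1*, *Efemp2*, *Lox* and *Mfap5*) of the 21013 genes with a single symbol on the array. They were grouped by their known role in the matrix, with earlier results of these data known, and each was represented by 1 probe set. RNA was measured on 9 arrays, 3 each for control, IRI and IRI + RPostC, the last labelled RpostC_IRI. All groups were male Wistar rats of the same, unstated age, operated under sodium pentobarbital, and no group carried a genetic change. In control rats a thread was passed under the left anterior descending coronary artery (LAD) for 60 min but the vessel was not closed, so these animals had the chest surgery without ischemia. In IRI rats the LAD was occluded for 45 min and then reopened, and in IRI + RPostC rats the left femoral artery was additionally clamped for 30 s and released for 30 s, in 3 cycles. A general description of the surgery gives a shorter ligation, and the time of tissue collection for RNA was not found in the study's text.

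Fibronectin is a dimeric glycoprotein that cells assemble into fibrils through integrins, and it forms the early, provisional matrix of an injured heart. Fibrillin-1 polymerises into microfibrils, which carry further glycoproteins such as MFAP5 and bind latent TGF-β. Elastin is laid down on these microfibrils, lysyl oxidase cross-links it, and the fibulins (FBLN1, FBLN2, FBLN5, and EFEMP1 and EFEMP2, also called fibulin-3 and fibulin-4) link the parts. In the heart these fibres lie in vessel walls, valves and the interstitium and are made largely by fibroblasts and smooth muscle cells.

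The values were log2 signals from robust multichip analysis. A single limma fit covered the 3 groups and 65403 probe sets, with Benjamini-Hochberg adjustment over all of them, and a gene is said to have risen or fallen where the adjusted p was under 0.05. The array medians were 4.51 to 4.55 in controls and 4.36 to 4.51 in the other groups, but the upper end of the scale differed, since 166 to 172 probe sets per control array and 1918 to 1948 per other array reached a log2 signal of 19, and none of the 10 genes did. The hybridization controls, labelled bacterial and phage transcripts added to the hybridization mix, averaged 11.21 in control, 10.42 in IRI and 10.44 in IRI + RPostC. In IRI against control 9.95% of all probe sets rose and 6.26% fell, which were 6509 and 4094 probe sets, and this balance turned to 4744 and 8946 after quantile normalization. Against control, IRI + RPostC had 7025 probe sets that rose and 4547 that fell, or 5070 and 9271 after quantile normalization. A limit of background was set at 4.70, the 95th percentile of 270 olfactory, vomeronasal and taste receptor probe sets. The cardiomyocyte markers of the labelled tissue were above that limit on every array, 7 of 7. Nothing in the sources states that each array was a different rat, and p therefore measured only the spread between arrays.

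*Fn1*, *Fbn1*, *Efemp1* and *Lox* were higher after IRI than in control, *Fbln1* and *Fbln2* were lower, and *Eln*, *Efemp2*, *Fbln5* and *Mfap5* did not pass the test. The largest difference was that of *Efemp1*, at 3.04-fold. Thus 4 of the 10 genes rose and 2 fell, beside 9.95% and 6.26% of all probe sets. Of the 12340 probe sets whose mean over the 9 arrays was 6 or more, 43.0% rose, and of the 6 genes among them 3 rose (*Fn1*, *Fbn1* and *Efemp1*). Without overlap between the arrays of both groups, 5 genes were higher and 2 lower, beside 14.8% and 14.6% of all probe sets. Of the bright probe sets, with a mean of 6 or more, 51.5% and 15.6% were so. Of the 6 bright genes, *Fn1*, *Fbn1*, *Fbln5* and *Efemp1* were higher and none was lower. The median difference of the 10 genes was 0.37, against -0.04 over all probe sets. The split of 4 higher and 2 lower became 1 and 3 after quantile normalization, 4 and 1 with median centring of the arrays, and 8 and 0 when the hybridization controls were set equal. That last setting shifted the differences of all genes from control up alike. With it even *Efemp2*, which had 1 deposited value on all arrays, differed by 0.79, so the 8 is no result about the 10 genes. Because heart tissue was measured in bulk, fewer cells of a type and less RNA per cell cannot be told apart.

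**Figure D1:**
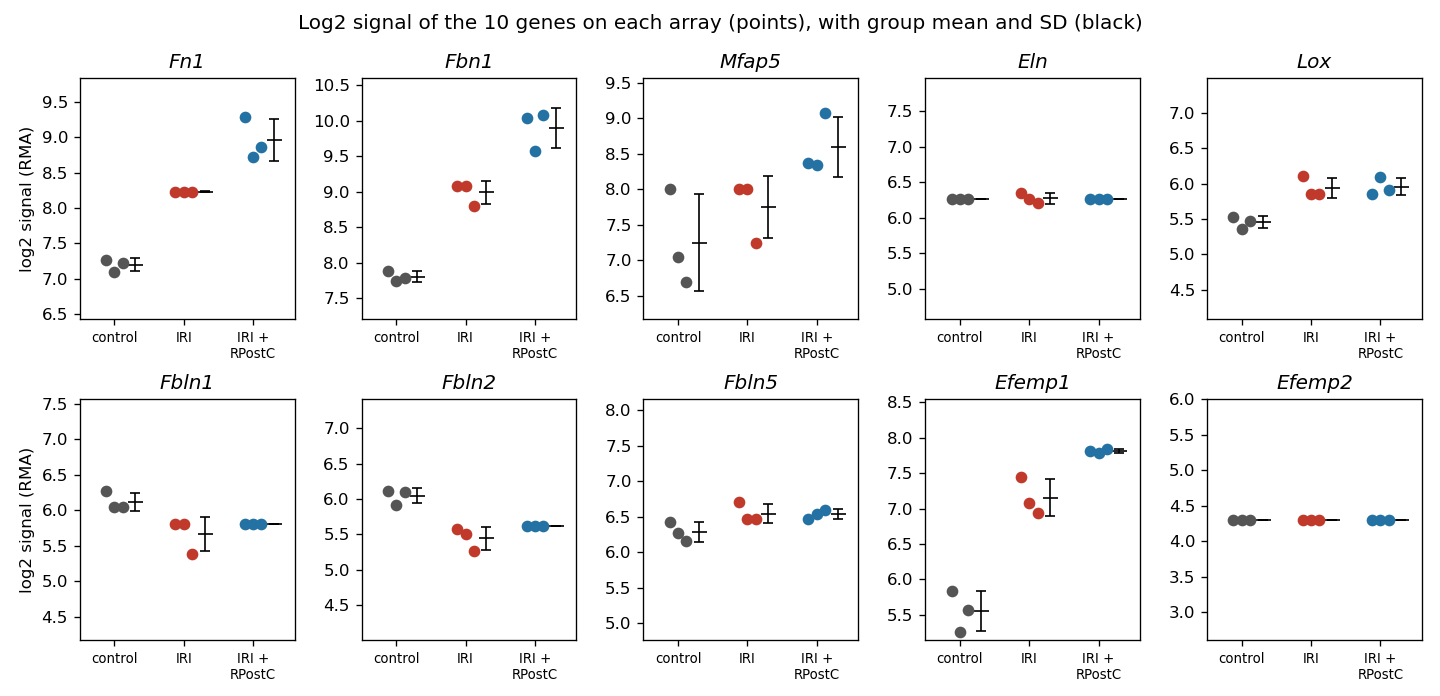
Log2 signal (vertical axis) of the 10 genes on the 9 arrays, 1 panel per gene, with a point per array and a line at the mean of the 3 arrays of control, IRI and IRI + RPostC. *Fn1*, *Fbn1* and *Efemp1* climb over the 3 groups without overlap, *Fbln1* and *Fbln2* lie highest in control, and *Efemp2* has 1 value, 4.30, on every array.

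The largest differences between the injured groups lay in *Fn1*, *Fbn1*, *Efemp1* and *Mfap5*, and promoter sequences were held for 3 of these genes. In all, 6 of the 10 genes matched the RefSeq promoter table (build GRCr8). The 250 bases before the start of *Fbn1* (chr3:133203391-133203640, minus strand), *Efemp1* (chr14:106811614-106811863, plus strand) and *Mfap5* (chr4:157399669-157399918, plus strand) are shown to set these genes side by side, 5′ to 3′ on the strand of the gene, with matched motifs in capitals.
Fbn1: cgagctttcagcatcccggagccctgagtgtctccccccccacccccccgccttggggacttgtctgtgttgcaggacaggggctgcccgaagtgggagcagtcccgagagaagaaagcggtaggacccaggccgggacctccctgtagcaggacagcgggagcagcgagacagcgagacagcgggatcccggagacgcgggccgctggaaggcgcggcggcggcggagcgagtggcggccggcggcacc
Efemp1: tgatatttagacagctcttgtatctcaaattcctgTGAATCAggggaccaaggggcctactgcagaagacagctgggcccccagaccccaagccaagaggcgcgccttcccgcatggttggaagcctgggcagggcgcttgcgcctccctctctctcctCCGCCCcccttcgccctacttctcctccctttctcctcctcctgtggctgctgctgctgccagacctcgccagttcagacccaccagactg
Mfap5: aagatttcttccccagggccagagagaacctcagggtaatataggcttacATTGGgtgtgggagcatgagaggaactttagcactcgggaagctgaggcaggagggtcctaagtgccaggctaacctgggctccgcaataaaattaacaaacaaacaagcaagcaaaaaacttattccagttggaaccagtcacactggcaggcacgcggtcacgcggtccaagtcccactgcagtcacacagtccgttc
The search covered both strands for 6 motifs: TATAAA and CCAAT of core promoters, the SP1 letters GGGCGG, the AP-1 letters TGANTCA, the CREB letters TGACGTCA and the TEAD letters GGAATG, none of which contains another. *Efemp1* held TGANTCA, which reads on both strands, 215 bases before the start, and GGGCGG on the minus strand 91 bases before it. *Mfap5* held CCAAT on the minus strand 200 bases before the start, and *Fbn1* held none of the 6. Of 33469 promoters of the same length, 6.34% held TGANTCA, 30.5% GGGCGG, 34.0% CCAAT, 12.9% TATAAA, 12.1% GGAATG and 1.59% TGACGTCA. The GC content was 71.2% for *Fbn1*, 61.2% for *Efemp1* and 51.6% for *Mfap5*, against a median of 51.2%. These 3 promoters thus shared no motif of the 6 and differed in base composition. The promoters of *Fbln2*, *Fbln5* and *Efemp2*, not shown, each held GGGCGG, and that of *Efemp2* also held CCAAT.

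*Fn1* encodes fibronectin itself. Its log2 signal was 7.27, 7.09 and 7.23 on the control arrays, 8.23, 8.22 and 8.23 on the IRI arrays, and 9.29, 8.72 and 8.86 on the IRI + RPostC arrays. No array of one group overlapped another group, and the order was control, IRI, IRI + RPostC. *Fn1* rose 2.04-fold after IRI (log2 difference 1.03, SE 0.14, limma adjusted p = 0.00174) and 3.39-fold in IRI + RPostC against control (1.76, SE 0.14, limma adjusted p = 8.42e-05). After quantile normalization the IRI difference was 0.32 and no longer passed the test (limma adjusted p = 0.126), and the IRI + RPostC difference was 0.86 and passed (limma adjusted p = 0.0016). Both differences used the same control arrays.

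*Fbn1* encodes the main subunit of the microfibril, and mutations in it cause Marfan syndrome in humans. The control arrays read 7.88, 7.74 and 7.79, the IRI arrays 9.09, 9.09 and 8.80, and the IRI + RPostC arrays 10.04, 9.58 and 10.08. The groups again stood apart in the order seen for *Fn1*. Against control, *Fbn1* rose 2.28-fold after IRI (log2 difference 1.19, SE 0.15, limma adjusted p = 0.00121) and 4.28-fold in IRI + RPostC (2.10, SE 0.15, limma adjusted p = 4.66e-05). Quantile normalization reduced the IRI difference to 0.22 (limma adjusted p = 0.369) and the IRI + RPostC difference to 0.85 (limma adjusted p = 0.00357).

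*Mfap5* encodes a small glycoprotein bound to microfibrils. It varied more between arrays, with 8.01, 7.04 and 6.69 in control, 8.01, 8.01 and 7.24 in IRI, and 8.37, 8.34 and 9.08 in IRI + RPostC. Control replicate 1 was level with 2 of the IRI arrays, while all IRI + RPostC arrays lay above both other groups. The IRI difference was 0.51 with a 95% interval from -0.43 to 1.44. In IRI + RPostC against control the difference was 1.35 (interval 0.42 to 2.29, limma adjusted p = 0.0592), and leaving out 1 array moved it between 1.07 and 1.73. Among those fits it passed the test only without control replicate 1 (1.73, limma adjusted p = 0.0167). After quantile normalization the difference was 0.49 (limma adjusted p = 0.407), while with the hybridization controls set equal it was 2.12 and passed.

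*Eln* encodes elastin, the elastic core of the fibre. Its log2 signal was 6.26 on every control and every IRI + RPostC array and 6.35, 6.26 and 6.20 on the IRI arrays. The same value therefore stood on 7 of 9 arrays, and the spread of the other groups was 0 as deposited. The IRI mean was 6.27 ± 0.08 (SD), and the interval of the difference from control ran from -0.09 to 0.11. The sign turned without IRI replicate 1, where the difference was -0.03. After quantile normalization *Eln* was lower than control in both injured groups, with log2 differences of -0.36 in IRI (limma adjusted p = 0.00353) and -0.42 in IRI + RPostC (limma adjusted p = 0.0015), and both passed the test.

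*Lox* encodes lysyl oxidase, the copper enzyme that cross-links elastin and collagen. It read 5.53, 5.36 and 5.47 in control, 6.11, 5.86 and 5.86 in IRI, and 5.86, 6.10 and 5.92 in IRI + RPostC. Both injured groups lay above all control arrays and overlapped each other. *Lox* rose 1.40-fold after IRI (log2 difference 0.49, SE 0.09, limma adjusted p = 0.0112) and 1.42-fold in IRI + RPostC (0.51, limma adjusted p = 0.00904). Between IRI + RPostC and IRI the difference was 0.02, with an interval from -0.21 to 0.24. The rise after IRI was 0.31 after quantile normalization and missed the threshold there (limma adjusted p = 0.0653).

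*Efemp1*, or fibulin-3, encodes an extracellular glycoprotein that binds elastin precursors and TIMP3. Its control arrays read 5.83, 5.26 and 5.57, the IRI arrays 7.45, 7.08 and 6.94, and the IRI + RPostC arrays 7.81, 7.78 and 7.85. It was the only one of the 10 genes with a different value on each of the 9 arrays, and the groups did not overlap. *Efemp1* rose 3.04-fold after IRI (log2 difference 1.60, SE 0.17, limma adjusted p = 0.000568) and 4.79-fold in IRI + RPostC against control (2.26, SE 0.17, limma adjusted p = 7.56e-05). Under the other settings tried, including all scalings, the IRI difference was 1.34 to 2.39, and both differences from control kept the call.

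*Fbln1* and *Fbln2*, which encode fibulins of basement membranes and microfibrils, were lower in both injured groups than in control. *Fbln2* read 6.11, 5.92 and 6.10 in control, 5.58, 5.50 and 5.27 in IRI, and 5.62 on all 3 IRI + RPostC arrays. All control arrays lay above all others. *Fbln2* fell by 0.60 on the log2 scale after IRI (SE 0.09, limma adjusted p = 0.00321) and fell by 0.42 in IRI + RPostC against control (limma adjusted p = 0.0159). The second call was lost without control replicate 1, control replicate 3, IRI + RPostC replicate 2 or IRI + RPostC replicate 3 (limma adjusted p = 0.050, 0.0511, 0.0533 and 0.0538) and after median centring (0.136). With the hybridization controls set equal, the direction turned and the differences were 0.19 and 0.35.

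*Fbln1* read 6.27, 6.04 and 6.04 in control, 5.81, 5.81 and 5.38 in IRI, and 5.81 on all 3 IRI + RPostC arrays. Controls lay above the others here too. *Fbln1* fell by 0.45 on the log2 scale after IRI (SE 0.12, limma adjusted p = 0.0489), while the difference in IRI + RPostC was -0.31 (limma adjusted p = 0.141). The call after IRI stood only without IRI replicate 3 among the fits that left out 1 array, and was lost in all the other 8 (limma adjusted p = 0.0555 to 0.128). Without IRI replicate 3 the IRI + RPostC difference also passed (-0.31, limma adjusted p = 0.0260). With the hybridization controls set equal the differences were 0.34 and 0.46. The value 5.81 was found on 1 or more arrays in 66 probe sets, as was the 5.62 of *Fbln2*.

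*Fbln5* encodes the fibulin that tethers elastin to integrins on the cell surface. It read 6.43, 6.27 and 6.15 in control, 6.71, 6.46 and 6.46 in IRI, and 6.46, 6.54 and 6.60 in IRI + RPostC. The injured groups lay above control without overlap, yet the differences of 0.26 and 0.25 did not pass the test (limma adjusted p = 0.125 for both), and they were -0.12 and -0.19 after quantile normalization. *Efemp2*, or fibulin-4, which helps lysyl oxidase to reach elastin, was listed at 4.30 on all 9 arrays. This was under the background limit, the value occurred in 472 probe sets, and 20 probe sets carried it on all arrays, so *Efemp2* gave no measurement of a difference.

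IRI + RPostC against control gave nearly the same calls, with 4 genes that rose (*Fn1*, *Fbn1*, *Efemp1* and *Lox*) and 1 that fell (*Fbln2*). Of all probe sets, 10.7% rose and 6.95% fell, and of those with a mean of 6 or more 45.1% rose, again with 3 of the 6 genes. Without overlap, 6 genes were higher and 2 lower, beside 15.6% and 17.3% of all probe sets. Of the bright probe sets 54.2% and 15.5% were so. Of the 6 bright genes, *Fn1*, *Fbn1*, *Fbln5*, *Efemp1* and *Mfap5* were higher and none was lower. The median difference of the 10 genes was 0.38, against -0.06 over all probe sets. After quantile normalization 3 rose and 3 fell, after median centring 5 rose and 0 fell, and with hybridization controls set equal 8 rose and 0 fell. That last setting again shifted the differences of all genes up alike, with *Efemp2* at 0.77. This comparison shared its control arrays with the one above.

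**Figure D2:**
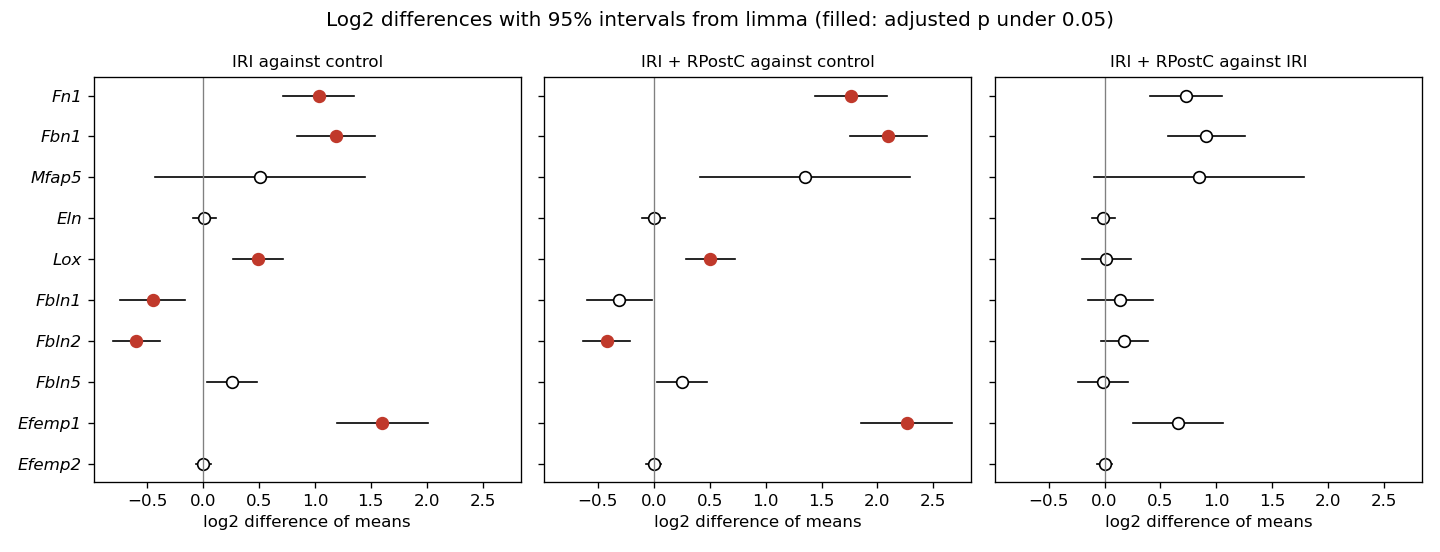
Log2 difference (horizontal axis) of each gene with its 95% interval from limma, for IRI against control, IRI + RPostC against control and IRI + RPostC against IRI. In the last of these *Fbn1* is at 0.91, *Mfap5* at 0.84, *Fn1* at 0.73 and *Efemp1* at 0.66, while *Eln*, *Lox* and *Fbln5* lie within 0.02 of 0.

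The comparison of IRI + RPostC with IRI asked what postconditioning added to the injury. *Fbn1*, *Mfap5*, *Fn1* and *Efemp1* had higher values in IRI + RPostC, *Fbln1* and *Fbln2* were slightly higher, and *Eln*, *Lox*, *Fbln5* and *Efemp2* were at or near 0. None of the 10 genes passed the adjusted test, and neither did any of the other probe sets (0.00% higher and 0.00% lower in limma). Before adjustment, a limma p under 0.05 was reached by 3 of the 10 genes on the higher side and 0 on the lower, and by 1.71% and 1.79% of all probe sets (1121 and 1173). Among probe sets with a mean of at least 6 the share that was higher was 4.52%. The t-test of the methods gave 0 probe sets after adjustment, and 3 of the 10 genes, 754 probe sets higher and 690 lower before it.

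*Fbn1* had the largest of these differences, at 0.91 (SE 0.15, interval 0.56 to 1.26, 1.88-fold), and ranked 36 of 65403 by p. The *Fn1* difference of 0.73 (SE 0.14, interval 0.41 to 1.05, 1.66-fold) ranked 84, and the *Efemp1* difference of 0.66 (SE 0.17, interval 0.25 to 1.06, 1.58-fold) ranked 299. The limma adjusted p was 0.709 for *Fbn1*, 0.795 for *Fn1* and 1 for *Efemp1*. Over the fit and all alternatives, left-out arrays included, the difference stayed between 0.63 and 1.07 for *Fbn1*, 0.54 and 0.85 for *Fn1*, and 0.51 and 0.81 for *Efemp1*. *Mfap5* differed by 0.84 with a wider interval (-0.09 to 1.78) and ranked 3459.

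The arrays of IRI + RPostC lay above all IRI arrays in 5 of the 10 genes (*Fn1*, *Fbn1*, *Fbln2*, *Efemp1* and *Mfap5*) and below in 0. Over all probe sets this held for 2.63% in the higher and 3.20% in the lower direction. Among those with a mean of at least 6, which included the 5 genes except *Fbln2*, it held for 5.96% and 0.948%. The *Fbln2* difference was small, at 0.18 (interval -0.03 to 0.38), with identical values on the 3 IRI + RPostC arrays. *Fbln1* differed by 0.14 (interval -0.15 to 0.43), *Eln* by -0.01 (interval -0.11 to 0.09) and *Fbln5* by -0.01 (interval -0.23 to 0.21). The median of the 10 genes was 0.16, against 0.00 over all probe sets.

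**Figure D3:**
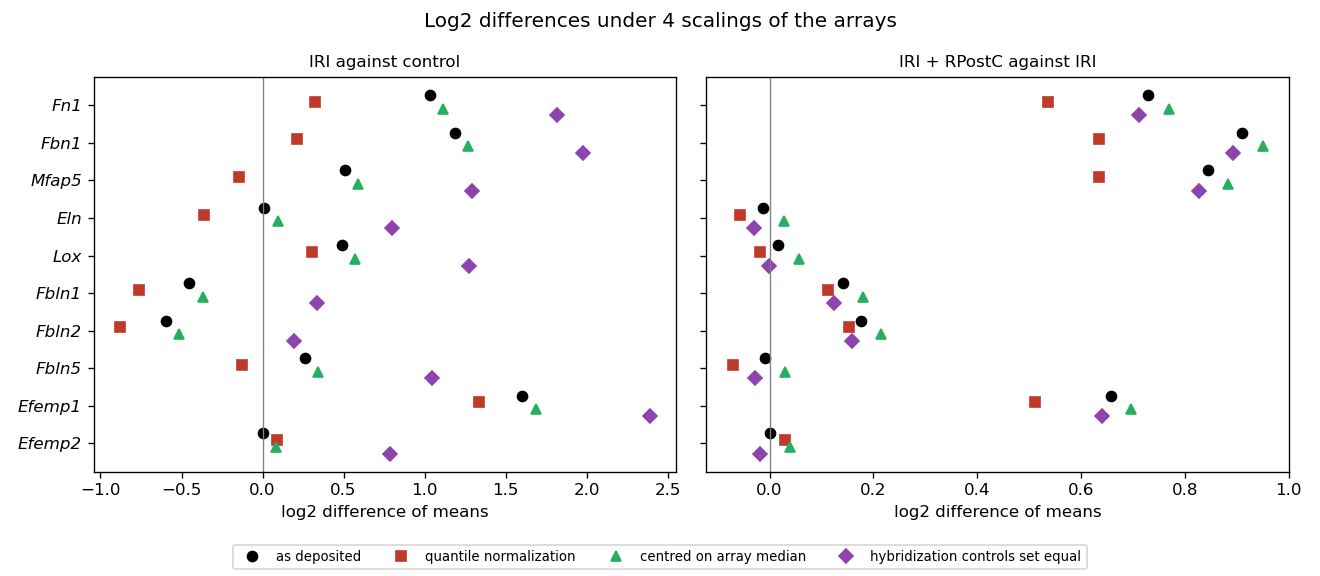
Log2 difference (horizontal axis) of the 10 genes in IRI against control (left) and IRI + RPostC against IRI (right), with the arrays as deposited, after quantile normalization, with each array centred on its median and with the hybridization controls set equal. Scaling moves *Fn1* after IRI between 0.32 and 1.82, whereas *Fn1*, *Fbn1*, *Mfap5* and *Efemp1* stay above 0.5 in the right panel under each.

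Identical values on several arrays were common. In IRI + RPostC 4 of the 10 genes (*Eln*, *Fbln1*, *Fbln2* and *Efemp2*) had 1 value on all 3 arrays, against 2 in control and 1 in IRI. At least 2 arrays were identical in 7 genes in IRI, 4 in IRI + RPostC and 2 in control. Of all probe sets, 5.28% had 1 value on the 3 control arrays and 12.5% on the 3 arrays of either injured group. The 8.01 of *Mfap5* stood in control replicate 1 and IRI replicates 1 and 2, and the 5.86 of *Lox* in IRI replicates 2 and 3 and IRI + RPostC replicate 1. An SD of 0 or near 0 here is a property of the deposited values.

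Genes that work with these fibres were taken from 4 lists. Of 25 other elastic fibre genes, 3 rose and 1 fell after IRI, 5 rose and 1 fell in IRI + RPostC against control, and 0 passed in limma between the injured groups (1 gene, higher, had an unadjusted p under 0.05). Over all probe sets 9.95% rose and 6.26% fell after IRI, and 10.7% and 6.95% in IRI + RPostC. Between the injured groups 1.71% of all probe sets were higher at an unadjusted p under 0.05. The median differences of the list were 0.04, 0.05 and 0.00. After IRI the split became 2 higher and 5 lower with quantile normalization and 24 and 0 with the hybridization controls set equal. *Mmrn1*, a multimerin of platelets and endothelium, rose from 6.15 ± 0.07 (SD over 3 arrays) in control to 8.12 ± 0.48 in IRI, a log2 difference of 1.97 (limma adjusted p = 0.00757). *Thsd4*, which promotes fibrillin-1 assembly, rose by 0.49 (limma adjusted p = 0.00187), and both kept their direction under all scalings. *Adamts10*, an ADAMTS family metalloproteinase that binds fibrillin-1, fell by 0.21 (limma adjusted p = 0.0363), but was 0.58 higher with the hybridization controls set equal. *Mfap4*, a microfibril protein, read 8.42, 8.42 and 8.26 in IRI and 9.01, 8.50 and 9.31 in IRI + RPostC. The *Mfap4* difference of 0.57 (SE 0.21) did not pass (limma adjusted p = 1).

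Fibronectin receptors and binding partners formed the next list. Of 12 measured genes of 13, 6 rose and 2 fell after IRI (median 0.33), and 7 rose and 2 fell in IRI + RPostC against control (median 0.50). Of all probe sets 9.95% rose and 6.26% fell after IRI (median -0.04), and 10.7% and 6.95% in IRI + RPostC (median -0.06). Of those with a mean of 6 or more, 43.0% and 45.1% rose. With quantile normalization the split after IRI was 3 and 3, and with the hybridization controls set equal 9 and 0. *Itgav*, the αv integrin subunit, rose from 7.66 ± 0.06 (SD over 3 arrays) in control to 8.59 ± 0.05 in IRI (limma adjusted p = 0.000333), though the difference of 0.93 was 0.02 after quantile normalization. *Sdc4*, a syndecan that acts with integrins in fibronectin adhesion, rose from 5.77 ± 0.18 to 7.06 ± 0.21 (limma adjusted p = 0.00106) and by at least 0.97 under each scaling. *Itgb5*, an integrin β subunit that pairs with αv, fell by 0.62 (limma adjusted p = 1.23e-05), and was 0.16 higher with the hybridization controls set equal. Between the injured groups 0 of 12 passed in limma, and 2 were higher at an unadjusted p under 0.05, *Itgb5* by 0.16 and *Sdc4* by 0.45. On that side 1.71% of all probe sets and 4.52% of those with a mean of 6 or more reached such a p.

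Of 10 measured genes of 12 for elastases, cathepsins and the elastin receptor, 1 rose and 1 fell after IRI. These counts were near the shares of all probe sets, 9.95% and 6.26%. In IRI + RPostC against control 3 rose and 1 fell, beside 10.7% and 6.95% of all probe sets. Setting the hybridization controls equal gave 8 higher and 0 lower after IRI. *Ctsl*, cathepsin L, had the largest difference, from 8.09 ± 0.30 (SD over 3 arrays) to 11.20 ± 0.16 (log2 difference 3.11, limma adjusted p = 7.96e-06), and was higher under each scaling. *Ctsa*, the cathepsin A of the elastin receptor complex, fell by 0.74 (limma adjusted p = 4.87e-05), but was 0.05 higher with the hybridization controls set equal. *Ctsk*, cathepsin K, an elastin and collagen protease, rose in IRI + RPostC against control by 0.71 (limma adjusted p = 0.0174). It read 5.53 on all 3 IRI arrays and 5.91 ± 0.15 in IRI + RPostC. In this list 0 of 10 passed in limma between the injured groups. An unadjusted p under 0.05 was reached by 2, both higher, and on that side by 1.71% of all probe sets.

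Regulators known to act on these genes included members of the TGF-β, SRF and YAP pathways. Most of them, like most of all probe sets, did not pass the test. Of 16 measured genes of 18, 1 rose and 2 fell against control in each injured group. The shares of all probe sets were 9.95% and 6.26% after IRI, and 10.7% and 6.95% in IRI + RPostC. A mean of 6 or more was held by 12 of the 16, and 43.0% of such probe sets rose after IRI. Between the injured groups 0 passed in limma, with 0 at an unadjusted p under 0.05. The split against control depended on scaling. After IRI 0 rose and 12 fell with quantile normalization, and 13 rose and 1 fell with the hybridization controls set equal. With that last setting 1 gene of the list also rose and 0 fell in IRI + RPostC against IRI. *Srf*, the serum response factor, fell by 1.17 after IRI (limma adjusted p = 0.00495) and was lower under each scaling. *Tead1*, a partner of YAP, fell by 0.89 (limma adjusted p = 0.0407), with -4.92 after quantile normalization and -0.10 with the hybridization controls set equal. *Yap1* rose by 0.18 (limma adjusted p = 0.0197), and differed by -0.36 after quantile normalization. *Tgfb1*, which induces many matrix genes, read 7.04 ± 0.07 in IRI and 7.35 ± 0.32 in IRI + RPostC, a difference of 0.32 that did not pass (limma adjusted p = 1).

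**Figure D4:**
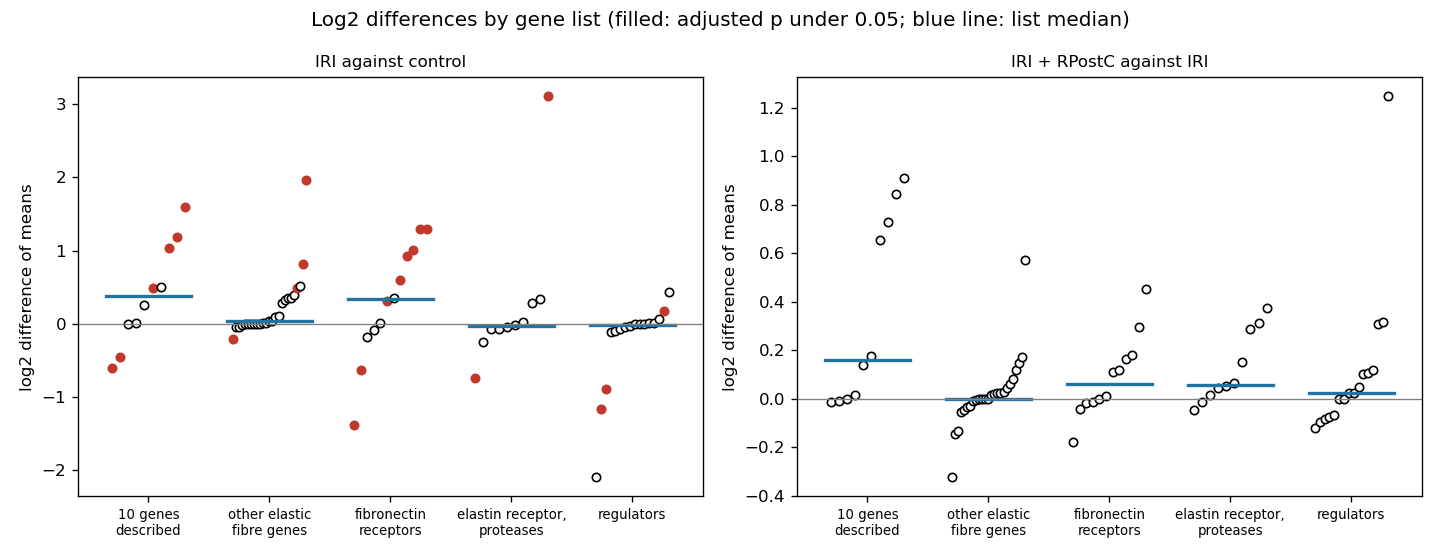
Log2 difference (vertical axis) of each gene of the 10 and of the 4 related lists, with the lists along the horizontal axis. The left panel is IRI against control and the right panel IRI + RPostC against IRI, with a point per gene and a line at each list's median. The medians of the 10 genes are 0.37 and 0.16, and those of the other elastic fibre genes 0.04 and 0.00.

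Some markers of cells that make these fibres also differed from control. Of 8 fibroblast markers, 5 rose after IRI and 6 in IRI + RPostC against control, and 0 fell. All 8 had a mean of 6 or more, and of such probe sets 43.0% rose after IRI and 45.1% in IRI + RPostC. After quantile normalization 2 rose and 2 fell after IRI, and *Dcn* went from a difference of 6.46 to -1.14. Their mean log2 signal per array was 7.51 to 7.79 in control, 9.51 to 9.74 in IRI and 9.69 to 9.83 in IRI + RPostC. Much of that mean came from *Dcn*, which stood at 18.82 on all 6 arrays of the injured groups. All 8 were above background on every array. Between the injured groups 0 of the 8 passed in limma (0 at an unadjusted p under 0.05). Their median difference was 0.17, with *Dcn* identical in both groups, and the median of the 10 genes was 0.16. Of 6 smooth muscle markers, 0 rose after IRI and 1 fell, *Acta2* by 4.06 on the log2 scale, beside 9.95% and 6.26% of all probe sets. The mean of the 6 per array was 7.95 to 8.0 in control, 7.04 to 8.44 in IRI and 7.02 to 7.60 in IRI + RPostC. Their median difference between the injured groups was -0.17, and 0.06 without IRI replicate 3. That array stood above the other IRI arrays in *Myh11* (9.24, against 7.89 and 7.61), *Cnn1* (8.08, against 5.39 and 5.19), *Tagln* and *Acta2*. It was only slightly above them in *Lmod1* (5.01, against 4.87 on both) and was below them in *Smtn* (6.80, against 6.95 and 6.96).

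Of 5 measured endothelial markers, 3 rose after IRI, with means per array of 7.86 to 8.32 in control, 9.61 to 10.63 in IRI and 9.94 to 10.13 in IRI + RPostC, but after quantile normalization 1 rose and 2 fell. Macrophage markers gave 0 of 6 after IRI, with means of 5.46 to 5.52, 5.55 to 5.62 and 5.60 to 5.72, and neutrophil markers 2 of 6 higher, with 4.63 to 4.74, 5.27 to 5.46 and 5.10 to 5.58. Of 4 platelet markers 1 rose after IRI, with means of 4.79 to 5.04, 5.15 to 5.90 and 5.10 to 5.49. The mesothelial list had 2 of 6 genes above background on every array, *Wt1* and *Upk1b*, and means of 4.56 to 4.64, 4.64 to 4.71 and 4.65 to 4.72. *Wt1* rose after IRI, and the 1 gene that fell, *Upk3b*, was under the background limit on all IRI arrays. Of 7 cardiomyocyte markers, 3 rose and 0 fell against control in each injured group, with means per array of 15.32 to 15.40, 15.95 to 16.10 and 15.96 to 16.09, while after quantile normalization all 7 fell. These 7 and the 5 endothelial markers had means of 6 or more, and of such probe sets 43.0% rose after IRI and 45.1% in IRI + RPostC. The counts of the other lists after IRI stand beside 9.95% of all probe sets that rose and 6.26% that fell. Of the 6 neutrophil markers, 2 were above background on every control array and 3 on every IRI array. With the hybridization controls set equal, all of the cardiomyocyte, fibroblast, endothelial, macrophage, neutrophil and platelet markers rose after IRI. The part of these cell types in the differences of the 10 genes was not tested.

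The genes most like *Fn1*, *Eln* and *Lox* were sought among 5389 or 5390 genes with a mean of at least 6, by the root mean square difference of the centred log2 signals over the 9 arrays. For *Fn1* these were *Fcgr2al1*, *Lin7c* and *Sema6d*, at 0.159, 0.165 and 0.175. *Sema6d* had means of 7.88 in control, 9.02 in IRI and 9.61 in IRI + RPostC. For *Lox* they were *Synj1*, *Rasa2* and *Upf3a*, at 0.0545, 0.0547 and 0.0573, and *Synj1* had means of 6.61, 7.02 and 7.06. The nearest to *Eln* were *Garre1*, *Sbds* and *Tspyl2*, at 0.0085, 0.0133 and 0.0136, which like *Eln* hardly moved between groups.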

How the data were processed

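RNA of the left ventricle was hybridized to 9 arrays, which were grouped by their labels into control, IRI and IRI + RPostC, 3 each. The methods name a rat gene array, while the series record describes a human one, and the probe sets carry rat annotation. The authors applied robust multichip analysis (RMA), and the deposited values, from 2.04 to 19.9, were used here as log2 signals. The RMA version, any filter and whether all arrays were normalized together were not stated. Arrays have no read depth, and their number of 3 in each group sets the precision.

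The file held 65526 probe sets, and 123 of them, all array controls, were removed. A single symbol was given for 22070, several for 478 and none for 42855, and 20887 of 21013 symbols matched RefSeq. For each gene the probe set with the highest mean over the 9 arrays was used. The groups were fitted with limma 3.58.1 in R 4.3.3 (lmFit, eBayes, 1 fit, two-sided) and p was adjusted by Benjamini-Hochberg over 65403 probe sets. The step was tested on simulated data. Of 129 list and marker entries, 121 were measured with a single symbol, and the others, among them *Itgb1*, *Neu1*, *Mmp2*, *Tgfbr2*, *Myh6*, *Cdh5* and *Gp1bb*, were not analysed here. The text names all 10 genes, those of smallest p in each list, of which a part is described, 3 genes most like *Fn1*, *Eln* and *Lox*, and single markers. Members and lists were chosen with earlier results of these data known. *Dcn*, *Myh11*, *Cnn1*, *Tagln* and *Acta2* were singled out after their values were seen.

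Alternatives were quantile normalization, median centring, array weights, the 2 compared groups alone, trend and robust eBayes, a filter at a mean of 6, removal of probe sets reaching 19, a gene's probe sets averaged, the methods' t-test, a replicate block and the omission of each array. Setting the 4 hybridization controls equal was added after the data were seen. Tables and figures were made in Python 3.11.15 with numpy 2.4.6, pandas 2.3.3 and matplotlib 3.10.9.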

Additional observations from a re-analysis of the deposited data

How the results depend on the processing

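IRI against control gave 6 of the 10 genes called, 3 with a filter at a mean of 6, which left 6 of them to test, 3 with the methods' t-test, and 5 to 6 when 1 array was left out. IRI + RPostC against control gave 5, 8 with the hybridization controls set equal, and 4 to 6 when 1 array was left out. IRI + RPostC against IRI gave 0 in every setting tried. Setting the hybridization controls equal moved the median of all probe sets to 0.75 and 0.71 against control. The sign turned in these cases, whose cause was not tested. Quantile normalization gave -0.36 for *Eln*, -0.12 for *Fbln5* and -0.15 for *Mfap5* in IRI against control, -0.19 for *Fbln5* in IRI + RPostC against control, and -0.019 for *Lox* between the injured groups. Equal hybridization controls gave 0.34 for *Fbln1* and 0.19 for *Fbln2* in IRI, 0.46 and 0.35 in IRI + RPostC against control, and -0.0015 for *Lox* between the injured groups. There, median centring gave 0.027 for *Eln* and 0.030 for *Fbln5*, and array weights 0.037 for *Fbln5*. Leaving out 1 array gave -0.029 to 0.047 for *Eln* in IRI against control, and between the injured groups -0.047 to 0.029 for *Eln*, -0.050 to 0.071 for *Fbln5* and -0.054 to 0.098 for *Lox*. Of all gene values under other settings, 527 kept direction and side of the threshold, 20 turned, 15 gained a call and 26 lost one.

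Same-numbered arrays of different groups did not deviate together (r from -0.30 to 0.04, 0 of 9 pairs over 0.1, and an array was closest to its own number in 4 of 18 cases), so the numbers were not taken as pairs. With the replicate block the counts were 5, 5 and 0.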
